A study of Mus musculus with 18 samples.

Results

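The mitochondrial ribosomal proteins are encoded by nuclear genes whose symbols begin with Mrpl or Mrps, and 78 of the 21954 genes in the deposited table of expected counts carried such a symbol, with pseudogene names left out. All 78 passed the filter on low counts, which 12514 genes of the table passed, so no member was lost to low expression. Mitochondria translate their own small genome on a dedicated ribosome. Its RNA comes from mitochondrial DNA, but its proteins are made in the cytosol, imported, and assembled into a large subunit, where peptide bonds form, and a small subunit, where the messenger RNA is decoded. The products of this ribosome are core subunits of the respiratory chain and of ATP synthase, and macrophages are known to change their use of respiration after interferon and after interleukin 4. Of the 78 genes, 51 encode large subunit proteins, 26 encode small subunit proteins, and Mrps36, despite its name, encodes a subunit of the oxoglutarate dehydrogenase complex. By the current naming of ribosomal proteins, 46 are counted as counterparts of bacterial proteins and 31 as specific to mitochondria; the latter include Mrps18a and Mrps18b, which are also related to bacterial S18.

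The series measured poly-A RNA of mouse bone marrow derived macrophages by RNA sequencing in 18 libraries, 3 in each of 6 groups. The groups were wild-type (control) and L13a knockout macrophages, each untreated, treated with IFN or treated with IL4, and the series names the knockout as specific to macrophages. L13a is a protein of the cytosolic large ribosomal subunit, encoded in mouse by Rpl13a. The labels give no strain, age or sex of the mice, no dose or time, no type of IFN and no Cre driver, and nothing in them tells if replicates were separate mice or cultures, so p-values measure the spread between these libraries, which may be technical.

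Total expected counts were 18098711 to 28477342 per library. Rpl13a was at 156 to 606 CPM (counts scaled to library size, after TMM normalization) in the 9 knockout libraries and at 437 to 867 CPM in the 9 wild-type libraries, and the genotypes overlapped under IL4 but not in untreated or IFN-treated cells. Lyz2, the lysozyme gene of macrophages, was at 0.682 to 7.12 CPM in knockout and at 2881 to 12108 CPM in wild-type libraries. The genotypes thus also differed in the RNA of a second gene, and the labels do not say whether its locus was altered. Of 8 macrophage markers, all were detected in every library, with a summed level of 6922 to 11291 CPM. The summed level of 8 fibroblast or stromal markers was 21.6 to 703 CPM and was highest in untreated wild-type libraries 2 and 3, with Col1a1 at up to 323 CPM, Sparc at up to 211 CPM and Col1a2 at up to 205 CPM, while Dcn and Lum stayed at or below 0.594 CPM. This sum was also high in untreated wild-type library 1 (554 CPM) and in knockout libraries 9 (IL4, 660 CPM) and 6 (IFN, 496 CPM). Knockout libraries 3, 6 and 9 had the highest sum of their groups. They also had the most Rpl13a of their groups, at 401, 425 and 606 CPM. Summed bone-forming and dendritic markers were at 5.84 to 53.2 and 1.51 to 49.97 CPM, and neutrophil, T-cell and B-cell markers stayed at or below 2.23, 3.42 and 0.984 CPM. Transcripts of 4 Y-linked genes summed to 134 to 191 CPM in wild-type libraries 1, 4, 5, 7 and 8 and to at most 3.19 CPM in all others. In bulk RNA, fewer cells of a type and less RNA per cell cannot be told apart.

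Promoter windows of 300 bases, from 250 before to 50 after each annotated start, were matched by symbol for 69 of the 78 members in RefSeq (GRCm38.p6), giving 75 windows. Each window was searched on both strands for a short word typical of 4 factors. CCGGAAG, the word of ETS factors such as GABPA, was present in 26 of the member windows (34.7%), against 8.86% of all 32851 windows and 11.6% of the 21263 windows of protein-coding genes. AAGATGGC, a word of YY1, was present in 12 windows (16%, against 2.75% of all windows). GCGCATGC, a word of NRF1, was present in 8 windows (10.7%, against 2.71% of all windows); this word is nearly its own reverse complement, so matches on both strands can overlap. CACGTG, the E-box of MYC and related factors, was present in 7 windows (9.33%, against 7.15% of all windows), but 3 of these are overlapping windows of Mrpl2 with the same match, so that it was found for 5 of 69 members. The 5 windows printed here are those of the most abundant member per unit length, Mrpl33, and of members whose IFN response is described later; capitals mark a match to a word on either strand. The Mrpl3 window (chr9:105053018-105053317, + strand) held 1 ETS word that began 19 bases before the start. That of Mrps27 (chr13:99344536-99344835, + strand) held an ETS word on the other strand 48 bases before the start and a YY1 word 14 bases after it. In the Mrpl33 window (chr5:31613701-31614000, + strand) an NRF1 word and an ETS word stood 1 base apart, beginning 12 and 3 bases before the start. The windows of Mrpl47 (chr3:32736706-32737005, - strand) and Mrps6 (chr16:92058086-92058385, + strand) held none of the 4 words. A match is a description of these letters and not a binding site.
Mrpl3: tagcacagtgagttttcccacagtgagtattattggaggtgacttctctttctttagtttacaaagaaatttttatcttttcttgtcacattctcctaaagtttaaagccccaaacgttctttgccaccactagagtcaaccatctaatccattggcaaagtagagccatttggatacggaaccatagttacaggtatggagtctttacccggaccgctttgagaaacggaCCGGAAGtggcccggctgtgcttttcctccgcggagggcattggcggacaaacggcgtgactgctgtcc
Mrps27: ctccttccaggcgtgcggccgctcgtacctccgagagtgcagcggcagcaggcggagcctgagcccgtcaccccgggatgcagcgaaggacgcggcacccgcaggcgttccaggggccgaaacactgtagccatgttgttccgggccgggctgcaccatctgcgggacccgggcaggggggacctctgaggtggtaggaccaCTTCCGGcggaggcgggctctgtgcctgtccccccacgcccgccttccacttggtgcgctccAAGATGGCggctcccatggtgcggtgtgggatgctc
Mrpl33: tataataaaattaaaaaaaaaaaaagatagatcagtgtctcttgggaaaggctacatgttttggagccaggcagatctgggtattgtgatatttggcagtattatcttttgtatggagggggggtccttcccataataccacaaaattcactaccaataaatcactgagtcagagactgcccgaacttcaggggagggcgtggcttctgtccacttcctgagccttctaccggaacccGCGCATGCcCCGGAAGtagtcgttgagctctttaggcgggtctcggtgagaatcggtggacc
Mrpl47: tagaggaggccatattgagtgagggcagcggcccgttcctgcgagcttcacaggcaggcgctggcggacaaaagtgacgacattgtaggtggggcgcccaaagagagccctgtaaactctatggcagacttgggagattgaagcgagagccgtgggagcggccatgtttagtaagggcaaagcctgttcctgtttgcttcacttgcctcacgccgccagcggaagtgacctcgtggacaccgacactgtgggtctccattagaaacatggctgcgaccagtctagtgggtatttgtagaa
Mrps6: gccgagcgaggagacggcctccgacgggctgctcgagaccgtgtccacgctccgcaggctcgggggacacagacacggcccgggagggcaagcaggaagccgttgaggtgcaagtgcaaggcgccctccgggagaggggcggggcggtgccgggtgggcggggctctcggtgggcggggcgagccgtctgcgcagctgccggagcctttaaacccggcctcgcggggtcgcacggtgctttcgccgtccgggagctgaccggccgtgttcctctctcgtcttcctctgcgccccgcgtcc

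The members were expressed at moderate and unequal levels, compared here in TPM, the deposited abundance unit that is corrected for transcript length. Their median mean level over the 18 libraries was 44.7 TPM, with an interquartile range of 31.0 to 69.8 TPM. The median of all 12514 genes tested was 15.1 TPM, and that of 77 genes for cytosolic ribosomal proteins other than Rpl13a was 1238 TPM. Large and small subunit members had medians of 45.9 and 44.0 TPM. Members counted as bacterial counterparts had a median of 55.7 TPM, and those counted as specific to mitochondria had a median of 37.9 TPM.

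The most abundant members were Mrpl33 at 234 ± 46.6 TPM (SD, n = 18 libraries), Mrpl52 at 217 ± 46.8 TPM and Mrps21 at 209 ± 42.9 TPM; these neighbours differed by less than their spread. The least abundant were Mrpl19 at 8.43 ± 1.12 TPM, Mrps31 at 13.5 ± 3.05 TPM and Mrpl1 at 13.5 ± 2.11 TPM, of which Mrps31 and Mrpl1 could not be ordered. Between these ends stood members with known special roles. Mrpl12, a protein of the stalk that recruits translation factors and that also binds the mitochondrial RNA polymerase, was at 83.5 ± 22.6 TPM, and Mrpl11, at the base of that stalk, was at 14.1 ± 1.86 TPM. Mrps12, a protein of the decoding centre, was at 59.5 ± 10.3 TPM. Mrpl45, which anchors the ribosome to the inner membrane, was at 29.1 ± 4.60 TPM. Mrpl58, a peptidyl-tRNA hydrolase that rescues stalled ribosomes and is built into the large subunit, was at 39.9 ± 7.89 TPM. Of the 3 members related to bacterial S18, Mrps18c was at 85.4 ± 17.2 TPM, Mrps18a at 67.8 ± 8.47 TPM and Mrps18b at 57.3 ± 7.97 TPM. Mrps18b and Mrps18c sit in the small subunit and Mrps18a in the large one.

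**Figure D1:**
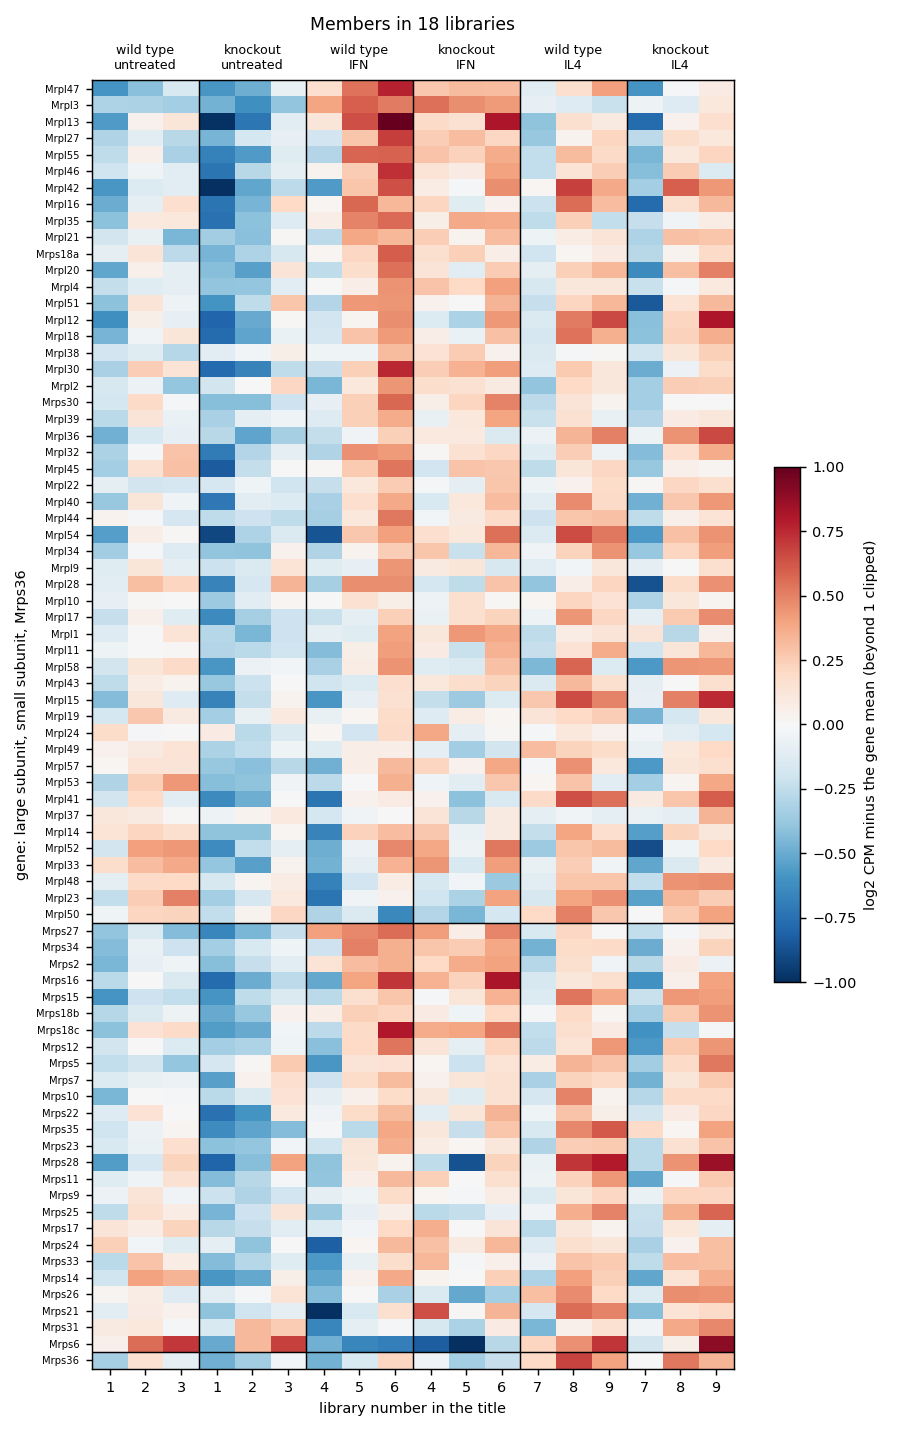
Level of each of the 78 members (rows, grouped by subunit and ordered by the IFN response of wild type) in the 18 libraries (columns, by group), as log2 CPM minus the gene's mean over all libraries; colour is clipped beyond 1. Whole columns are blue or red: in untreated knockout library 1, 77 of 78 members were below their own mean, and in IFN-treated wild-type library 6 only 4 were.

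The members moved together from library to library within groups. The median over the 78 members of log2 CPM minus each gene's mean was -0.22, 0.06 and -0.02 in untreated wild-type libraries 1 to 3, and -0.25, 0.10 and 0.35 in IFN-treated wild-type libraries 4 to 6. It was -0.14, 0.24 and 0.20 in wild-type libraries 7 to 9, treated with IL4. The means of the 6 groups ran from -0.25 to 0.12. The 3 wild-type groups overlapped, and all untreated knockout libraries (highest -0.03) lay below all IFN-treated knockout libraries (lowest 0.01). The lowest libraries of the wild-type groups, 1, 4 and 7, had Y-linked transcripts. So did wild-type libraries 5, at 0.10, and 8, at 0.24 the highest of its group. Numbers 1 and 7 were also lowest in their knockout groups, where no library had them, while in IFN-treated knockout the lowest was 5. A link with these transcripts was not tested.

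In knockout cells the same median was -0.43, -0.29 and -0.03 in untreated libraries 1 to 3. It was 0.08, 0.01 and 0.26 in IFN-treated libraries 4 to 6, and -0.31, 0.14 and 0.26 in libraries 7 to 9, treated with IL4. The median over all genes tested was between -0.02 and 0.03 in every library. The medians of the 77 cytosolic ribosomal protein genes ranged from -0.69 in untreated knockout library 2 to 0.45 in IL4-treated wild-type library 8. Genes in the shortest 25% by transcript length (up to 808 bases) had medians from -0.11 to 0.10, lowest in untreated knockout library 1, where the members were lowest too, and those in the longest 25% had medians of 0.15 there and -0.10 in IL4-treated wild-type library 8. The median transcript length of the members was 848 bases. The part of length, of proliferation (Mki67 was at 14.6 to 238 CPM) and of RNA quality in the members' shared movement was not tested.

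**Figure D2:**
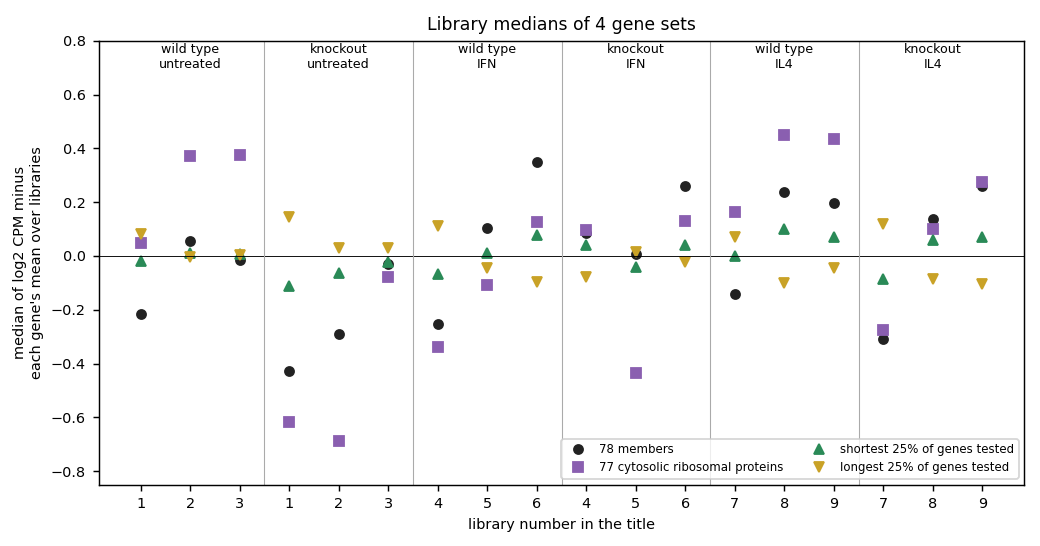
Median of log2 CPM minus each gene's mean over libraries (y axis) for the 78 members, 77 cytosolic ribosomal protein genes and the shortest and longest 25% of genes tested, in each library (x axis, by group). The member medians run from -0.43 to 0.35, and the untreated knockout libraries all lie below the IFN-treated knockout libraries, while the wild-type groups overlap.

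In wild-type cells, edgeR called 4 members higher and 1 lower after IFN. A member was called where edgeR's quasi-likelihood p, adjusted by Benjamini and Hochberg over all 12514 genes, was under 0.05. The 5 calls are 6.41% of the members, against 18.6% of all genes tested (11.1% higher and 7.55% lower), and this lower share was not tested. The median log2 fold change of the members was 0.17, with 53 of 78 above 0, and that of all genes was -0.02. The groups did not overlap in 8 members that were higher and 4 that were lower after IFN, against 18.7% and 18.6% of all genes, or 37.3% in all. DESeq2 called the same 5 and also Mrpl50 lower (-0.49, DESeq2 adjusted p 0.039). Tested with limma on log2(TPM + 1), the same 5 were called, as were Mrpl50 (-0.55) and Mrpl48 (-0.51) lower and Mrpl35 (0.74) higher.

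Mrpl3, a core protein of the large subunit next to the peptidyl transferase centre (chromosome 9, 105053239 to 105079888, + strand of GRCm38), had the lowest adjusted p. It was at 41.9, 41.5 and 40.9 CPM in untreated wild-type libraries and at 67.9, 78.6 and 74.2 CPM after IFN. Every IFN-treated library was well above every untreated one. The fold change was 1.77 (95% interval 1.53 to 2.06), the log2 fold change 0.83 (SE 0.101, edgeR adjusted p 2.68e-05), and the call held under all 16 alternatives tried. Exons of Mrpl3 overlap those of Gm38077 on the same strand and of Gm47106 on the opposite strand, and their part in its counts was not tested.

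Mrps27, a pentatricopeptide repeat protein of the small subunit (chromosome 13, 99344786 to 99415562, + strand), was at 19.8, 23.6 and 19.2 CPM untreated and at 34.6, 36.3 and 38.2 CPM after IFN. These groups did not overlap either, and the fold change was 1.74 (95% interval 1.39 to 2.19, edgeR adjusted p 0.0015), called under 15 of 16 alternatives. Exons of Mrps27 overlap those of 6430562O15Rik on the opposite strand, whose part in its counts was not tested. Mrpl47, a large subunit protein near the mouth of the exit tunnel (chromosome 3, 32725397 to 32737605, - strand), was at 9.60, 10.8 and 13 CPM untreated and at 16.3, 21.1 and 24.7 CPM after IFN. All of its IFN-treated libraries were above all untreated ones, but they were spread more widely, and the fold change was 1.85 (95% interval 1.35 to 2.54, edgeR adjusted p 0.00737), called under all 16. Exons of Mrpl47 overlap those of Actl6a and Ndufb5 on the opposite strand, and whether reads were counted by strand is not given in the sources used here; the log2 fold changes of these neighbours were 0.29 and 0.49 (edgeR adjusted p 0.341 and 0.0627).

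Mrps2, a small subunit protein (chromosome 2, 28468066 to 28471178, + strand), was at 26.3, 33.9 and 34.9 CPM untreated and at 39.5, 44.5 and 45.9 CPM after IFN. The groups stood apart, but the log2 fold change of 0.45 was close to the threshold (SE 0.149, edgeR adjusted p 0.0453) and was called under only 5 of 16 alternatives; leaving out any 1 of the 6 libraries of this comparison ended the call (edgeR adjusted p 0.0527 to 0.197).

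Mrps6, a small subunit protein (chromosome 16, 92058270 to 92112227, + strand), was the 1 member that edgeR called lower. It was at 17.3, 24.5 and 27.3 CPM in untreated wild-type cells and at 12, 10.6 and 10.4 CPM after IFN. The treated libraries were close to each other and below all untreated ones, and the log2 fold change was -1.06 (SE 0.321, edgeR adjusted p 0.0288). Exons of Mrps6 overlap on the same strand those of Slc5a3, an inositol transporter gene, whose log2 fold change was -2.45 (SE 0.447, edgeR adjusted p 0.00105). How the authors' counting divided reads between both genes is not given, so the value of Mrps6 is uncertain. Without untreated library 2 or 3, or IFN-treated library 4, 5 or 6, the adjusted p was 0.0832, 0.115, 0.0604, 0.0906 and 0.0852, and the call held under 8 of 16 alternatives.

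**Figure D3:**
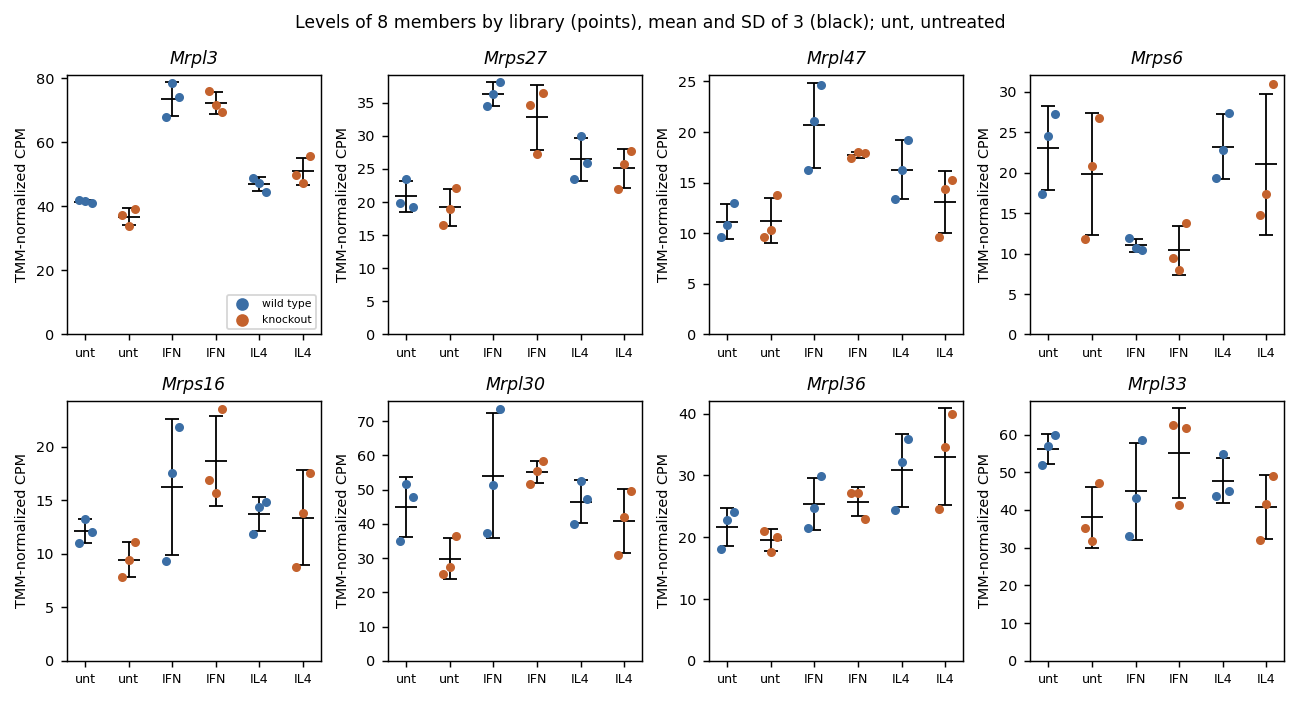
TMM-normalized CPM of 8 members in each library (points, blue wild type and orange knockout; x axis, treatment), with the mean and SD of 3 libraries in black; each y axis starts at 0. Mrpl3 and Mrps27 are higher in the IFN-treated libraries of both genotypes. Mrps6 is lower in those of wild type, while in knockout its groups overlap and edgeR did not call it. The IFN-treated wild-type libraries of Mrps16 and Mrpl30 are widely spread.

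In knockout cells, 13 members rose after IFN and 0 fell at the same threshold. These are 16.7% of the members, against 21.6% of all genes tested (12.6% higher and 8.93% lower). The median log2 fold change was 0.37, with 68 of 78 above 0 (all genes, -0.03), and 36 members were higher and 1 lower without overlap of the groups, against 18.8% and 15.7% of all genes, or 34.4% in all. The untreated group of this comparison included knockout library 1, with the lowest member median of all 18 libraries. The shift was not particular to the members. In knockout after IFN the 77 cytosolic ribosomal protein genes had a median of 0.39, with 72 above 0 and 19 (24.7%) called higher. In wild type after IFN their median was -0.35, with 75 below 0 and 1 called lower. On log2(TPM + 1), tested with limma, the members' median was 0.000412 while that of all genes was -0.31. On that scale 3 members were called higher (Mrpl3, Mrpl35 and Mrps27) and 6 lower (Mrpl37, Mrpl49, Mrpl50, Mrps6, Mrps26 and Mrps31), and the members stood 0.31 above all genes, against 0.40 on the TMM scale.

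Mrpl3 was at 37.3, 33.8 and 39.3 CPM in untreated knockout cells and at 76.0, 71.6 and 69.4 CPM after IFN, again without overlap. Its fold change was 1.96 (95% interval 1.69 to 2.28, edgeR adjusted p 4.61e-06), called under all 15 alternatives. Mrps27 was at 16.5, 18.9 and 22.2 CPM untreated and at 34.7, 27.2 and 36.5 CPM after IFN. Its treated libraries were also all above the untreated ones, with a fold change of 1.71 (95% interval 1.36 to 2.14, edgeR adjusted p 0.00197), called under all 15 alternatives. Mrpl47 was at 9.66, 10.3 and 13.7 CPM untreated and at 17.4, 18 and 17.9 CPM after IFN (log2 fold change 0.65, edgeR adjusted p 0.0389), while its opposite-strand neighbour Ndufb5, a subunit of respiratory complex I, had a log2 fold change of 0.77 (edgeR adjusted p 0.00471).

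The largest log2 fold changes among the 13 were those of Mrps16 (0.98), Mrpl3 (0.97), Mrpl13 (0.97) and Mrpl30 (0.89), followed by Mrps18c (0.77), Mrps27 (0.77), Mrpl55 (0.73) and Mrpl35 (0.68). Mrps16, a small subunit protein with a bacterial relative, was at 7.83, 9.44 and 11.1 CPM untreated and at 16.9, 15.7 and 23.5 CPM after IFN. Mrpl30, of the large subunit, was at 25.4, 27.5 and 36.5 CPM untreated and at 51.7, 55.4 and 58.2 CPM after IFN. Neither gene's groups overlapped, and their edgeR adjusted p were 0.0228 and 0.0131. The other called members, named after their values were seen, were Mrpl4 (0.59), Mrps2 (0.58), Mrpl1 (0.62) and Mrps30 (0.61) with Mrpl47 above. Mrps6 had a log2 fold change of -0.93 (edgeR adjusted p 0.051; DESeq2 called it lower, -0.94 with an adjusted p of 0.0275), and its same-strand neighbour Slc5a3 one of -2.52. Without untreated library 1, untreated library 2 or IFN-treated library 6, the number called was 5, 4 and 5, of which 4 were among the 13 each time.

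The IFN response of no member was called different between the genotypes. The difference of responses, tested as an interaction, passed the threshold in 0 of 78 members by edgeR and by DESeq2 and in 0% of all genes by edgeR; 5 members had an unadjusted p under 0.05, against 4.93% of all genes. The lowest p was that of Mrpl33, a small protein of the large subunit, which was at 52.0, 57 and 59.8 CPM in untreated wild type and at 33.2, 43.1 and 58.6 CPM after IFN, but at 35.3, 31.6 and 47.1 CPM in untreated knockout and at 62.5, 41.4 and 61.6 CPM after IFN. Treated libraries were thus lower or level in wild type and mostly higher in knockout, with wide spread, and the interaction was 0.86 on the log2 scale (SE 0.312, edgeR adjusted p 0.852). Exons of Mrpl33 overlap those of Gm43809 on the same strand. Mrps17 and Mrpl1 came next, with interactions of 0.50 and 0.55 (edgeR adjusted p 0.898 and 0.977). For Mrpl3 the interaction was 0.15 (95% interval -0.16 to 0.45), and for Mrps27 it was -0.03 (95% interval -0.49 to 0.43). The median interaction of the members was 0.17 on the TMM scale, but it was -0.06 on log2(TPM + 1), where that of all genes was -0.24.

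**Figure D4:**
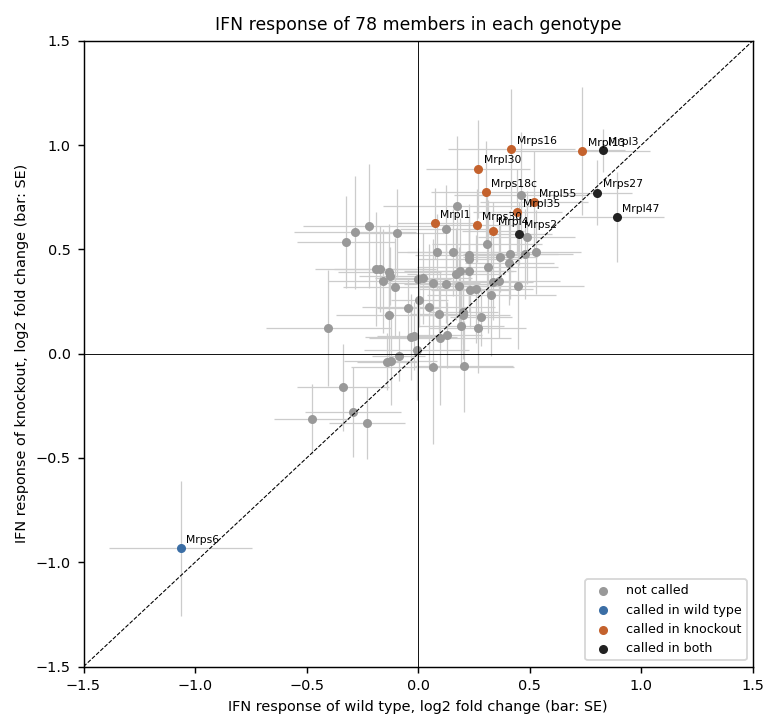
Log2 fold change after IFN of the 78 members in wild type (x axis) and in knockout (y axis), with standard errors as bars and the line of equal response dashed; the axes use separate untreated controls. Mrpl3, Mrps27, Mrpl47 and Mrps2 were called in both genotypes, 9 members by edgeR in knockout alone and Mrps6 by edgeR in wild type alone (DESeq2 called Mrps6 in both), and no difference between the genotypes was called.

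Few members were called after IL4. In wild-type cells 0 members were called by edgeR and by DESeq2, against 8.49% of all genes by edgeR, and 9 had an unadjusted p under 0.05, against 20.9% of all genes. Their median log2 fold change was 0.17, with 64 of 78 above 0 (all genes, -0.01), and 14 members were higher and 1 lower without overlap of the groups, against 13.8% and 14.7% of all genes, or 28.5% in all. The 3 members with the lowest p were Mrps15, Mrpl15 and Mrpl36, with log2 fold changes of 0.62, 0.62 and 0.51 (edgeR adjusted p 0.0894, 0.129 and 0.131). Mrps15, a protein of the small subunit, was at 37.8, 49.3 and 48.1 CPM untreated and at 51.8, 82.4 and 74.2 CPM after IL4. Mrpl15, of the large subunit, was at 21.6, 31.7 and 26.8 CPM untreated and at 35.2, 46.0 and 41.3 CPM after IL4. In both genes the IL4-treated libraries lay above the untreated ones.

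In knockout cells 4 members rose after IL4 and 0 fell, which is 5.13% of the members against 9.48% of all genes (5.35% higher and 4.12% lower). The median log2 fold change was 0.27, with 76 of 78 above 0 (all genes, 0.01), and 8 members were higher without overlap of the groups against 11.3% of all genes higher and 22% in either direction. The 77 cytosolic ribosomal protein genes had a median of 0.44 in this response, with 76 above 0 and 8 (10.4%) called higher. Their median after IL4 in wild type was 0.08, with 53 above 0 and 0 called. Mrpl36, a very short protein of the large subunit, was at 21.0, 17.6 and 20.1 CPM untreated and at 24.5, 34.6 and 40.0 CPM after IL4, a fold change of 1.68 (95% interval 1.27 to 2.24, edgeR adjusted p 0.0219). Its treated libraries were all higher, though library 7 only slightly. Exons of Mrpl36 overlap those of Ndufs6 on the opposite strand, whose log2 fold change was 0.58 (edgeR adjusted p 0.224). Mrps35, of the small subunit, was at 11.7, 12.5 and 13.3 CPM untreated and at 20.6, 18.2 and 23.8 CPM after IL4 (fold change 1.67, edgeR adjusted p 0.0345), and Mrpl17, of the large subunit, was at 26.8, 33.2 and 36.3 CPM and then at 39.2, 50.2 and 58.0 CPM (fold change 1.53, edgeR adjusted p 0.0401). Mrpl3 was at 49.9, 47.4 and 55.6 CPM after IL4, a fold change of 1.38 (95% interval 1.19 to 1.61, edgeR adjusted p 0.00758), where the value after IFN, against the same untreated libraries, was 1.96. In all 4 members the treated and untreated libraries did not overlap, but each of the 4 calls was lost on log2(TPM + 1) and in a fit of the compared groups alone. No member was called without untreated library 2 or without IL4-treated library 9, while 2 were called without untreated library 1, 2 without IL4-treated library 8, and 7 without IL4-treated library 7. The summed dendritic markers, mostly Cd24a, were at 14.7 to 18.5 CPM in the untreated and 37.2 to 49.97 CPM in the IL4-treated knockout libraries (7.67 to 11.03 and 15.3 to 30.8 CPM in wild type), with Flt3 at or below 0.402 CPM in all libraries; their part in these values was not tested.

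Mrps36, the dehydrogenase subunit that is not part of the ribosome, was at 15.3, 21.5 and 18 CPM in untreated wild type and at 22.1, 30.9 and 25.4 CPM after IL4. In knockout it was at 13.8, 15.1 and 18.9 CPM untreated and at 19.4, 27.8 and 24.3 CPM after IL4. The IL4-treated libraries were higher in both genotypes without overlap, but the log2 fold changes of 0.52 and 0.58 did not pass the threshold (edgeR adjusted p 0.143 and 0.0912). For the difference of IL4 responses between genotypes, 0 members were called by edgeR and by DESeq2, and 0 had an unadjusted p under 0.05, against 1.99% of all genes. The lowest p was again in Mrpl3, at 0.29 on the log2 scale, followed by Mrps9 at 0.30 and Mrps17 at 0.32.

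The knockout itself was not accompanied by a called difference in any member. The knockout libraries were not uniform in remaining Rpl13a RNA, which was at 401, 425 and 606 CPM in libraries 3, 6 and 9. In the other knockout libraries it was at 156 to 333 CPM. Libraries 3, 6 and 9 also had the highest member median of their knockout groups, and a link was not tested. In untreated cells 0 of 78 were called by edgeR and by DESeq2, against 0.0799% of all genes by edgeR, and 6 had an unadjusted p under 0.05, against 7.54% of all genes. The median log2 difference, knockout minus wild type, was -0.20 with 67 of 78 below 0 (all genes, 0.01), and 12 members were lower and 2 higher without overlap of the groups, against 7.66% and 6.43% of all genes, or 14.1% in all. The 77 cytosolic ribosomal protein genes had a median of -0.74 in the same comparison, with 76 below 0 and 1 called. Of them, 60 had an unadjusted edgeR p under 0.05, and 52 were lower and 0 higher without overlap of the groups. Under IFN 0 members were called by both tools (0.0639% of all genes by edgeR), 1 had an unadjusted p under 0.05 against 5.79% of all genes, the member median was 0.00056, and the groups overlapped in every member, against 9.33% of all genes without overlap. Under IL4 0 were called by both tools (0.0639% of all genes by edgeR), 1 had an unadjusted p under 0.05 against 2.46%, the median was -0.07, and 2 members were lower without overlap, against 2.73% of all genes lower and 5.04% in either direction.

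The mean of the 3 genotype differences, which uses all 18 libraries, was the most precise comparison, with a median standard error of 0.123 on the log2 scale over the members. In it 0 members were called by both tools (0.392% of all genes by edgeR), 1 had an unadjusted p under 0.05 against 10.2% of all genes, and 66 of 78 were below 0 with a median of -0.10. The 95% interval of 76 of the 78 members lay within a 1.5-fold change in either direction; in untreated cells alone it did so for 29. Mrpl49, a large subunit protein specific to mitochondria, had the lowest p, with a log2 difference of -0.22 (edgeR adjusted p 0.238). It was at 26.7, 27.6 and 28.5 CPM in untreated wild type and at 20.8, 21.9 and 25.1 CPM in untreated knockout, without overlap. Under IFN it was at 23.8, 27.2 and 27.0 CPM in wild type and at 24.2, 20.4 and 22.8 CPM in knockout, and under IL4 at 32.0, 30.2 and 29.4 CPM against 24.6, 27.9 and 29.7 CPM, with overlap in both. Mrpl19 and Mrpl30 followed, at -0.19 and -0.25 (edgeR adjusted p 0.515 and 0.586).

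Mrpl13 is the mitochondrial counterpart of the L13a protein, of the same ribosomal protein family, and was singled out for that reason after its values were seen. It was at 27.4, 41.9 and 44.2 CPM in untreated wild type and at 20.5, 24.6 and 37.5 CPM in untreated knockout. The libraries of both genotypes overlapped, and the log2 difference was -0.45 (SE 0.305, edgeR adjusted p 0.796). Over the 3 treatments the mean difference was -0.26 (SE 0.175, edgeR adjusted p 0.707). After IFN it was at 44.2, 63.3 and 81.5 CPM in wild type (log2 fold change 0.74, edgeR adjusted p 0.107) and at 46.2, 45.0 and 71.0 CPM in knockout (0.97, edgeR adjusted p 0.0329). Mtbp, on the opposite strand with overlapping exons, had a log2 fold change of 0.13 in the knockout.

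**Figure D5:**
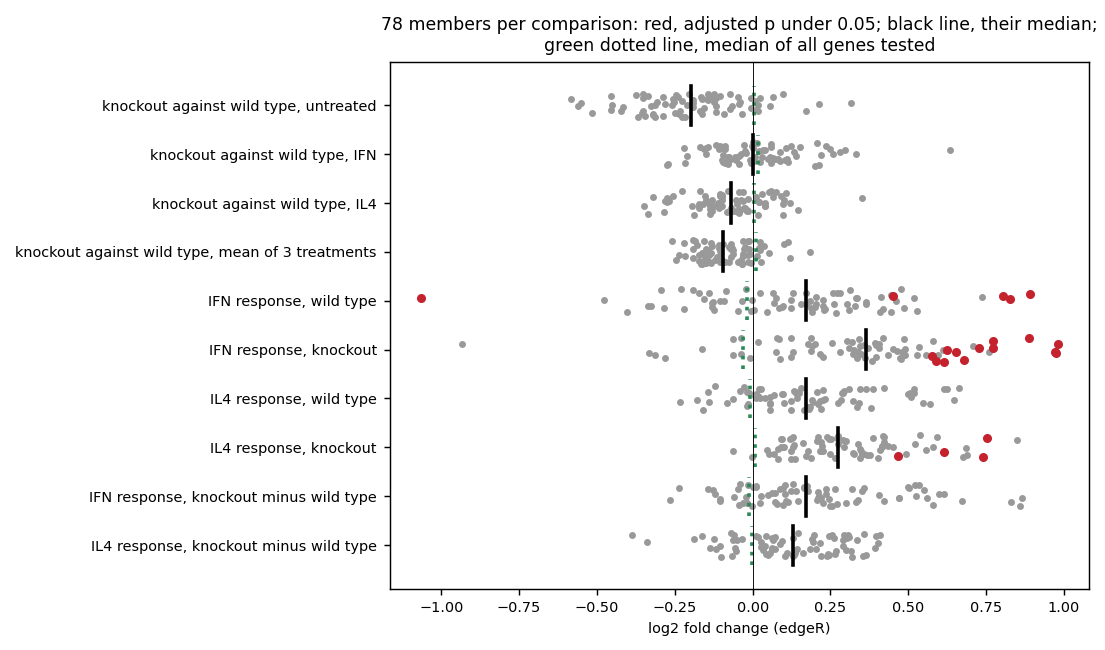
Log2 fold changes of the 78 members (points) in each of the 10 comparisons (rows), with called members in red, the member median as a black line and the median of all genes tested as a green dotted line; vertical scatter within a row carries no meaning. Member medians lie to the right of all genes in the 4 cytokine responses (0.17 to 0.37) and to the left in untreated knockout cells (-0.20); calls occur in 3 of the 4 responses and in no genotype comparison.

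Split by role, the subunits gave medians close to each other. After IFN the median log2 fold change was 0.19 in the large and 0.12 in the small subunit in wild type, and 0.38 and 0.37 in knockout. After IL4 it was 0.15 and 0.20 in wild type, and 0.27 and 0.30 in knockout. In untreated knockout against wild-type cells it was -0.21 and -0.18. Of the 13 members called after IFN in knockout, 9 of 51 were in the large and 4 of 26 in the small subunit; 11 of 46 were bacterial counterparts and 2 of 31 specific to mitochondria. These shares were 17.6%, 15.4%, 23.9% and 6.45%, against 21.6% of all genes (12.6% higher), and the split was not tested. Exons of 33 members overlap those of another gene, and not every such overlap is named above. Among the 45 without such overlap, 7 (15.6%) were called after IFN in knockout and 1 (2.22%) in wild type, with medians of 0.38 and 0.17.

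Genes that work with the mitochondrial ribosome gave values that varied by list, some of them close to those of the members. Of 7 lists, none held more than 3 called genes in any of the 10 comparisons. The background for their counts is 18.6% of all genes called after IFN in wild type and 21.6% in knockout, and 8.49% and 9.48% after IL4. Of 26 assembly factors, 0 were called after IFN in wild type (median log2 fold change -0.01) and 3 in knockout, where Mpv17l2, which helps large subunit assembly, was higher (0.86), as was Rpusd4, a pseudouridine synthase (0.38), and Noa1, a GTPase, was lower (-0.50). The value of Rpusd4 was -0.01 on log2(TPM + 1), and with each library left out in turn these 3 calls held in 3, 1 and 1 of 6 fits. Of 16 translation and RNA-handling factors, 1 rose after IFN in each genotype. This was Gfm1, the elongation factor that moves the ribosome along the message, in wild type (0.52, edgeR adjusted p 0.0098), and Slirp, which protects mitochondrial messages, in knockout (1.28, edgeR adjusted p 0.0058). Gfm1 also rose after IL4 in wild type (0.57, edgeR adjusted p 0.0103), from 34.7, 41.3 and 42.3 CPM to 57.8, 57.7 and 60.1 CPM. Without untreated wild-type library 1 the 2 calls of Gfm1 were lost (edgeR adjusted p 0.0622 and 0.0604). The medians of the 16 factors were -0.08 in wild type and 0.05 in knockout after IFN, and 0.15 and 0.11 after IL4. After IL4 those of the 26 assembly factors were -0.04 and -0.11, and those of the members 0.17 and 0.27.

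Of 17 mitochondrial aminoacyl-tRNA synthetases, which charge the tRNAs, Sars2 (0.75) and Tars2 (0.57) rose after IFN in wild type, Iars2 fell after IFN in knockout (-0.28) and Wars2 rose after IL4 in knockout (0.71). With each of the 6 libraries left out in turn, these calls held in 4, 2, 1 and 3 of 6 fits. Of 10 genes that copy or transcribe mitochondrial DNA, Twnk, the replicative helicase, fell after IFN in both genotypes. It was at 9.44, 9.41 and 11.5 CPM in untreated wild type and at 3.84, 4.30 and 5.18 CPM after IFN (log2 fold change -1.19, edgeR adjusted p 0.000272), and its log2 fold change in knockout was -0.69 (edgeR adjusted p 0.0152; 0.0583 without IFN-treated library 6). Exons of Twnk overlap those of the member Mrpl43 on the opposite strand, and the log2 fold changes of Mrpl43 were -0.0022 in wild type and 0.36 in knockout, neither called. Ssbp1, the single-strand binding protein of mitochondrial DNA, rose after IL4 in wild type (0.56, edgeR adjusted p 0.0286) and in knockout (0.73, edgeR adjusted p 0.00536). Tefm, an elongation factor of mitochondrial transcription, rose after IFN in knockout (0.84). With single libraries left out, the call of Tefm held in 1 of 6 fits, and those of Ssbp1 in 1 of 6 fits in wild type and 6 of 6 in knockout. The medians of the 17 synthetases were 0.04 in wild type and -0.10 in knockout after IFN, and 0.11 and 0.14 after IL4. Those of the 10 genes for mitochondrial DNA were -0.04 and 0.01 after IFN, and 0.07 and 0.20 after IL4.

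The 13 protein-coding transcripts of mitochondrial DNA, whose messages this ribosome reads, had log2 fold changes of the opposite sign in IFN-treated wild-type cells. All 13 had a log2 fold change below 0 there, with a median of -0.48 and 1 called, mt-Nd3, a complex I subunit. It was at 209, 379 and 446 CPM untreated and at 119, 96.8 and 180 CPM after IFN, without overlap (log2 fold change -1.39, edgeR adjusted p 0.00781). In knockout the median after IFN was 0.13, with 9 of 13 above 0 and 0 called by edgeR. After IL4 all 13 were above 0 in both genotypes, with medians of 0.33 in wild type and 0.48 in knockout. Of these, edgeR called 0, and 1 and 5 had an unadjusted p under 0.05, against 20.9% and 22.4% of all genes. In untreated knockout against wild-type cells all 13 were below 0, with a median of -0.46, 0 called and 3 with an unadjusted p under 0.05, against 7.54% of all genes. The difference of IFN responses had a median of 0.55 with 13 of 13 above 0, 0 called and 3 with an unadjusted p under 0.05, against 4.93% of all genes.

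Of 7 tested regulators of mitochondrial gene expression, Ppargc1b, a coactivator that promotes mitochondrial biogenesis, rose in all 4 responses. It was at 1.09, 0.621 and 1.80 CPM in untreated wild type, at 10.5, 9.55 and 10.4 CPM after IFN and at 9.75, 7.79 and 13.6 CPM after IL4. In knockout it was at 1.77, 1.43 and 0.989 CPM untreated, at 8.65, 10.5 and 9.98 CPM after IFN and at 10.5, 8.98 and 7.50 CPM after IL4. Treated and untreated libraries stood far apart in both genotypes, with log2 fold changes from 2.69 to 3.11, each called under all alternatives. Esrra, an orphan receptor that works with such coactivators, rose after IFN in wild type (0.63, edgeR adjusted p 0.0189), and Myc fell after IFN in knockout (-1.54, edgeR adjusted p 0.0119), each in 3 of 6 fits with 1 library left out. The 5 tested ribosomal proteins of mitochondria whose symbols do not follow the Mrpl or Mrps pattern had medians of 0.06 and 0.15 after IFN and 0.16 and 0.25 after IL4 in wild type and knockout. Of these, 0 were called by edgeR and 2 had an unadjusted p under 0.05 after IFN in knockout, against 32.7% of all genes.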

How the data were processed

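Poly-A RNA of 18 libraries was sequenced. The authors deposited, per the file headers, expected counts and TPM per gene, and the submitters' processing notes name Bowtie 0.12.8, RSEM 1.2.3 and the mm10 build. Of the expected counts the authors deposited, 21.5% of all values were not exactly equal to a whole number; here they were rounded to whole counts. No column of values lacked a sample (0).

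Members were found by symbol. The members, the gene lists and the rule for named genes were chosen with earlier results of these data known, and nothing is independent support for them. The rule named called members whose groups did not overlap (up to 8 in each direction), otherwise the 3 with the lowest p, the 3 most and the 3 least abundant, and 10 members preset for their roles; of each list, up to 3 called genes. Genes were filtered with filterByExpr, scaled by TMM and tested in edgeR 4.0.16 (R 4.3.3, robust quasi-likelihood fit, newer form, 1 coefficient per group), with p adjusted by Benjamini and Hochberg over all genes tested. The fit was run on simulated counts in which genes varied independently of each other. These lacked the members' shared movement between libraries, so that run is no support for the calls. TPM values the authors deposited, as log2(TPM + 1), were tested with limma 3.58.1; DESeq2 1.42.0 was another alternative. A fold change on log2(TPM + 1) understates the change of low genes. Positions and exon overlaps come from GENCODE on GRCm38, matched for 78 of 78 members.

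Wild-type and knockout libraries share numbers in their titles. Their deviations from the group mean correlated over 9712 genes at 0.746, 0.0725 and 0.573 for numbers 1 to 3 (untreated), 0.371, 0.0356 and 0.265 for 4 to 6 (IFN) and 0.702, 0.561 and 0.475 for 7 to 9 (IL4), so that over these more highly expressed genes only the IL4 numbers passed the limit of 0.1 for every pair; over all 12514 genes the IFN pairs, at 0.296, 0.135 and 0.276, passed it too. This pairing comes from the data and is not stated in the labels. Untreated wild-type libraries 2 and 3 were closer to each other than other replicates. The chi-square of their counts per degree of freedom was 5.92, against 49.1 to 175 in the other replicate pairs. They differed by more than counting noise, which does not show that they were separate samples, and were kept as 2.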

Additional observations from a re-analysis of the deposited data

How the results depend on the processing

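Counts of called members after IFN in wild type (5) were 8 with limma on log2(TPM + 1) or log2(TPM + 0.1), 3 with untreated wild-type libraries 2 and 3 summed, and 2 without libraries 3, 6 and 9; with 1 library left out in turn they were 3 to 5. After IFN in knockout (13) the count was 4 without libraries 3, 6 and 9, and 4 to 14 with 1 library left out. After IL4 in wild type (0) it was 2 with Y-linked transcripts as a covariate, and 0 to 1 with 1 library left out, 1 being without IL4-treated library 7. After IL4 in knockout (4) it was 1 on both TPM scales, 0 in a fit of the compared groups only, 0 without libraries 3, 6 and 9, and 0 to 7 with 1 library left out. The median member log2 fold change after IFN in knockout (0.37) was 0.000412 and 0.000441 on the TPM scales with pseudocounts 1 and 0.1, and the median difference of IFN responses (0.17) was -0.0631 and -0.0638; the cause of these shifts was not tested. Rpusd4 after IFN in knockout (0.38) was -0.0109 and -0.0118 there. In the fit with the replicate number as a block, 0 members were called in every genotype comparison and difference of responses, as without it. The responses to IFN and IL4 were not fitted with a block, since treatments share no numbers. Of 185 member counts, 162 were within 1.5 times the reported one and 23 were not. All of the 23 were in responses to IFN or IL4. The 162 include every count of the genotype comparisons and differences of responses, where 0 members were called and no call could be lost. Of the values of named members 581 kept their side of the threshold, 93 lost the call, 3 gained it and 0 changed sign. The 581 include members named for their lowest p without a call, which had no call to lose. The legacy form of the edgeR fit, added after the data were seen, called 5, 14 and 4 members after IFN in wild type, IFN in knockout and IL4 in knockout. A group of 3 libraries limits the precision: the median standard error over members was 0.21 on the log2 scale between 2 groups.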
